A study of Mus musculus with 2 samples.

Results

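Hemoglobin, the oxygen carrier of red blood cells, is built of α-globin and β-globin chains that each hold a heme. Erythroid cells make both chains in balance, and Alas2 is the enzyme that starts heme synthesis there. Hemoglobin and heme set free in plasma are bound by Hp (haptoglobin) and Hpx (hemopexin), and the receptor Cd163 of macrophages takes up hemoglobin bound to haptoglobin. The genes described here are 9 rows of the 23358 genes in the table, 5 of adult globins (Hba-a1, Hba-a2, Hbb-b1, Hbb-b2 and Beta-s), Alas2, and the 3 scavenger genes Hp, Hpx and Cd163. They were taken by gene name, and the set was chosen by their values in group D and group E, so the differences between the groups are given as a description with no test.

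The ileum, the end of the small intestine, was the source of the RNA, taken from BALB/c mice that were 21 days old when divided into groups of 10. Mice of group D (diarrhea model) received 0.1 ml of saline into the peritoneum and 0.2 ml of castor oil by mouth, and 0.5 h into the experiment 0.3 ml of saline by mouth. Mice of group E received the same saline injection and castor oil, and then 0.3 ml of ellagic acid (EA, a plant polyphenol) at 10 mg/ml in place of the oral saline. Treatment was given once a day for 3 days, and all mice of both groups had castor oil, so neither group shows the healthy ileum. Ileums were rinsed with saline before the RNA was taken. Each group had 2 libraries, and the deposited table holds 1 value per gene and group in FPKM, which corrects fragment counts for transcript length and for the number of fragments mapped. No SD, n or test can be given for any difference below. Depth is not known from the table, so no counting interval can be given either. Changes are given as log2(E/D), the log2 ratio of both FPKM values.

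The adult globin genes are near-identical copies, and their rows do not stand for separate places in the genome. The position listed for Hba-a1 and that listed for Hba-a2 are the same, chromosome 11 from 32296489 to 32297310, which in the RefSeq annotation of GRCm38.p6 is the gene Hba-a2. The RefSeq place of Hba-a1, from 32283672 to 32284486, was overlapped by 0 rows of the table. Hbb-b1 and Hbb-b2 were both listed on chromosome 7 from 103812524 to 103813923, which RefSeq gives as the gene Hbb-bt, and Beta-s was listed from 103826523 to 103827928, the place of Hbb-bs. The 5 globin rows thus cover 3 positions. The BALB/c strain carries the diffuse haplotype of the β-globin locus, with Hbb-b1 and Hbb-b2 as its adult genes, whereas the C57BL/6J reference carries the single haplotype with Hbb-bs and Hbb-bt.

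The coding regions of each pair differ at 1 base, and the stretches that hold this base are shown because a read from within the coding region that lacks it cannot be told apart within the pair. Positions count from 1 at the A of the start codon, sequences are from GENCODE M21 transcripts on GRCm38, and the capital is the base that differs. In the α-globin pair the difference is C381T from Hba-a1 to Hba-a2, shown with coding positions 351 to 410.
Hba-a1: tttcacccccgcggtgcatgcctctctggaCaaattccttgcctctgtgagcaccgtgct
Hba-a2: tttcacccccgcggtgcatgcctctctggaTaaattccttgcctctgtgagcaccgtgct
The β-globin pair is that of the reference haplotype, and the β-globin genes of BALB/c were not compared. In this pair the difference is C417T from Hbb-bs to Hbb-bt, shown with coding positions 387 to 444, which end at the stop codon.
Hbb-bs: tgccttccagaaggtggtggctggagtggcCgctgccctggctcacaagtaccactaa
Hbb-bt: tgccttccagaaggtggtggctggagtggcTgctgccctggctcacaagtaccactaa
The coding region is 429 bases long in the α-globin pair and 444 bases long in the β-globin pair. Of all windows of 100 bases in the Hba-a2 transcript, 74.5% were also found letter for letter in Hba-a1, and of those in Hbb-bs, 62.6% were also found in Hbb-bt. How the authors' counting shared such reads between rows is not stated in the sources used here, so the level of a single globin row is uncertain and sums over rows are given beside it.

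**Figure D1:**
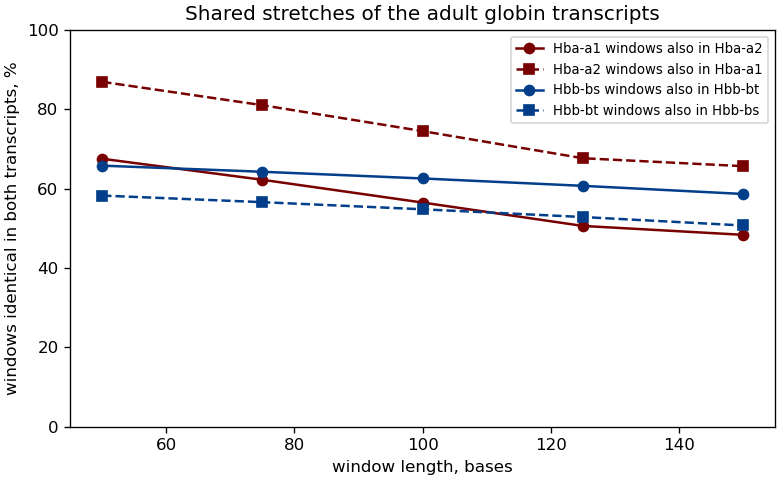
Share of windows of one globin transcript that occur letter for letter in its partner (y axis, %) against window length in bases (x axis), for the α-globin pair (dark red) and the β-globin pair (blue). With windows of 150 bases the share was still 48.4% of Hba-a1, 65.7% of Hba-a2, 58.7% of Hbb-bs and 50.7% of Hbb-bt.

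The main α-globin row was lower and the main β-globin row higher in group E. Hba-a1, an α-globin gene, was listed at 21.8 FPKM for group D against 5.07 FPKM for group E, a log2 change of -2.10. Beta-s, the adult β-globin of the reference strain, was listed at 23.1 FPKM for group D against 65.7 FPKM for group E, a log2 change of 1.51. In group D the levels of both rows lay close together, and in group E they lay far apart. Hba-a1 stood at place 36 from the lowest change among the 12694 genes that passed the filter on low values (above 0 in both groups, with a mean over the groups of 1 FPKM or more), and Beta-s at place 75 from the highest.

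The other rows of adult globin were low or near 0. Hba-a2, the second α-globin gene, was listed at 0.00589 FPKM for group D against 0.00864 FPKM for group E, although it shares its listed position with Hba-a1. Hbb-b1, the major adult β-globin of the diffuse haplotype, was listed at 0.000644 FPKM for group D against 3.09 FPKM for group E. Its value in group D was the 54th lowest of 17387 values above 0 in that group. A value this near 0 in a gene whose coding region has near-identical copies can be a failed estimate, so the log2 change of 12.23 cannot be read as a size, and at a pseudocount of 1 FPKM it was 2.03. Hbb-b2, the minor adult β-globin, was listed at 0.719 FPKM for group D against 0.639 FPKM for group E. The sum of Hbb-b1 and Hbb-b2, the rows at the place of Hbb-bt, was 0.720 FPKM for group D against 3.73 FPKM for group E.

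Summed over rows, α-globin was 21.8 FPKM for group D against 5.08 FPKM for group E, 4.29-fold lower in group E. The sum of the 3 β-globin rows was 23.8 FPKM for group D against 69.4 FPKM for group E, 2.92-fold higher in group E. All 5 rows together came to 45.6 FPKM for group D against 74.5 FPKM for group E, a log2 change of 0.71. Thus α-globin made up 47.8% of adult globin FPKM in group D and 6.82% in group E. Both α-globin rows were listed at the place of Hba-a2, and 0 rows covered that of Hba-a1. Whether reads from the place of Hba-a1 are counted in the α-globin sum is not known. The ratio of α-globin to β-globin was 0.916 in group D and 0.0732 in group E, a 12.5-fold difference that no scaling between the groups can alter, since both values of a ratio come from 1 group. The group of every value is taken from the column headings, which no replicate or second table checks for a single row, and the share and the ratio rest above all on Hba-a1, which was listed in the direction opposite to Beta-s. The Beta-s row held 96.98% of the β-globin sum in group D and 94.6% in group E. As BALB/c carries Hbb-b1 and Hbb-b2 in place of Hbb-bs, the gene behind the reads of the Beta-s row is not known. The remaining rows of both clusters, the embryonic Hba-x, Hbb-y, Hbb-bh1 and Hbb-bh2 and the theta-like Hbq1a and Hbq1b, were listed at 0 in both groups.

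**Figure D2:**
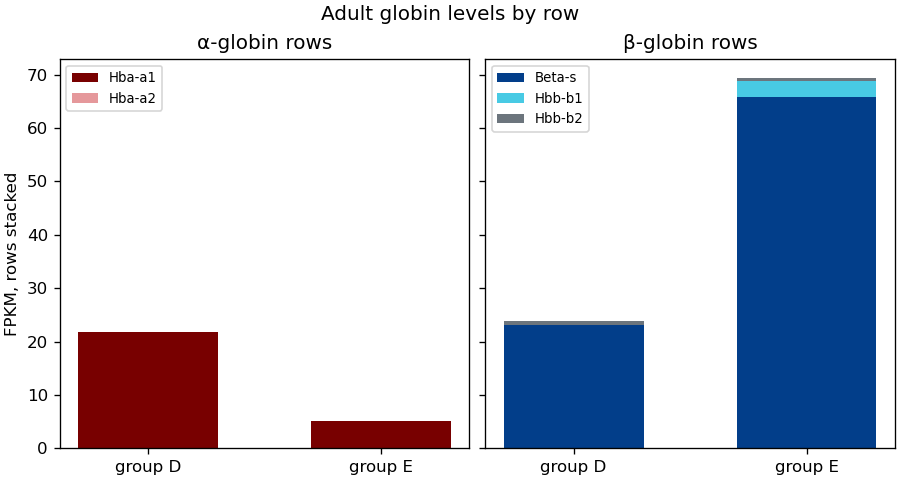
FPKM of the α-globin rows (left) and β-globin rows (right) in group D and group E, stacked by row from 0, with 1 value per row and group. The α-globin stack goes from 21.8 to 5.08 FPKM and the β-globin stack from 23.8 to 69.4 FPKM.

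The upstream sequences of the genes at the 3 listed globin positions are shown as a description. Their part in the opposite directions listed for α-globin and β-globin was not tested. The sequences come from the C57BL/6J reference, so those of Hbb-bs and Hbb-bt are not of the haplotype that BALB/c carries. Each run gives the 250 bases before the start site (RefSeq, GRCm38.p6), with capitals on matches to the 6 motifs searched on both strands. These were AGATAA, which erythroid transcription factors of the GATA family bind, CCACACCC, a box that Klf1 binds in globin promoters, TGANTCA, bound by AP-1 and NF-E2, TTCNNNGAA, bound by STAT factors, TTGCNNAA, bound by C/EBP factors, and TATAAA, where the general machinery of transcription binds.
Hba-a2, chr11:32296242-32296491, plus strand: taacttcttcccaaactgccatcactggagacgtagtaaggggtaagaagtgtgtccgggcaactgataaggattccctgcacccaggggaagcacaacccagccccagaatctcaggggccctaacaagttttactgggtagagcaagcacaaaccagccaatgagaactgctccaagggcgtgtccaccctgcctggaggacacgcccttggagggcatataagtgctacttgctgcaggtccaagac
Hbb-bs, chr7:103827929-103828178, minus strand: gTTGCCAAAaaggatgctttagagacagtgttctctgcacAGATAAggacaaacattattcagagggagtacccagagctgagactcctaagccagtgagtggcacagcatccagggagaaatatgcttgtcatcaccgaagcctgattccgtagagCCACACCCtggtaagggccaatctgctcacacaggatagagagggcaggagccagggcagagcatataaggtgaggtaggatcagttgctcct
Hbb-bt, chr7:103813924-103814173, minus strand: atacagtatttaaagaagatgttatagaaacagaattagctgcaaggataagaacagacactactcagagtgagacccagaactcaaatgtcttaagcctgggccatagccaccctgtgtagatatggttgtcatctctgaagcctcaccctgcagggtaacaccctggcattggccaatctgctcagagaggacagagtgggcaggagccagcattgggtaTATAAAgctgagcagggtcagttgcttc
The RefSeq windows of Hba-a1 and Hba-a2, which run on past the start site beyond the bases printed here, share 297 bases when shifted by 3, so only Hba-a2 is printed. Hbb-bs held AGATAA and CCACACCC, motifs that 9.99% and 3.20% of all 32851 promoter windows hold, and TTGCNNAA (9.56% of windows). Hbb-bt held TATAAA (12.4% of windows). TGANTCA (6.75% of windows) and TTCNNNGAA (7.02% of windows) were in none of the 3 sequences, and Hba-a2 held none of the 6 motifs in this spelling. Only these exact spellings were searched. The Hba-a2 run holds tgataa, which differs from AGATAA in its first base. Both Hba-a2 and Hbb-bs hold tataag, which differs from TATAAA in its last base. A missing match therefore does not show that a promoter lacks such a site.

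Alas2, the erythroid enzyme of heme synthesis, lies on chromosome X from 150547417 to 150570622 and stood at 0.710 FPKM for group D against 1.38 FPKM for group E. Its log2 change of 0.96 was just inside 2-fold and had the sign of Beta-s, and its mean of 1.05 FPKM was just above the filter. The 12 other genes listed for heme synthesis all lay within 2-fold, with a median log2 change of 0.17. Among them, Alas1, the enzyme that starts heme synthesis outside erythroid cells, was at 44.7 FPKM for group D against 53.9 FPKM for group E. Tmem14c, which serves heme synthesis in mitochondria, was at 74.8 FPKM and 86.1 FPKM, and the enzymes Alad and Urod were at 21.5 and 24.2 FPKM and at 16.6 and 20.7 FPKM. Over all 12694 genes the median was 0.01, and 97.1% lay within 2-fold.

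Markers of erythroid cells gave little RNA in both groups. Of 24 such genes in the table, 20 were under 1 FPKM in both groups, and Kel (a blood group antigen) and Car1 (a carbonic anhydrase of red cells) were listed at 0 in both. Slc4a1, the anion exchanger of red cells, was listed at 0 for group D against 0.0499 FPKM for group E. Klf1, the activator of β-globin, was listed at 0.154 FPKM for group D against 0 for group E, and Tspo2, Rhd and Rhag were also listed at 0 in group E. The 4 erythroid genes that passed the filter all lay within 2-fold, as did 97.1% of all genes that passed. Among the 4, Bpgm, which makes a regulator of oxygen binding, was at 41.1 FPKM for group D against 44.3 FPKM for group E. The mitochondrial iron importer Slc25a37 was at 41.6 FPKM and 33.9 FPKM. Both are also expressed outside erythroid cells. The summed level of the 24 genes was 91.5 FPKM for group D against 86.8 FPKM for group E. Their part in the globin values was not tested. In these tissue samples, fewer cells of a type and less RNA per cell cannot be told apart.

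Hp, which binds free hemoglobin, was the scavenger with the largest difference. Its row, on chromosome 8 from 109575128 to 109579172, stood at 26.5 FPKM for group D against 0.468 FPKM for group E, a log2 change of -5.82 and the 3rd lowest of the 12694 genes. At a pseudocount of 1 FPKM the log2 change was -4.23. As for every row, the groups of both Hp values rest on the column headings alone, with no replicate to check them. Among these 9 genes Hp had the highest level in group D and stood in place 7 in group E. The genes next to it within 20 kb were not listed lower, with Txnl4b at 2.99 FPKM for group D against 4.82 FPKM for group E, Dhodh at 4.12 FPKM and 6.22 FPKM, and Dhx38 at 10.6 FPKM and 12.8 FPKM.

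Hpx, which binds free heme, was close to 0 in both groups. Its row, on chromosome 7 from 105591611 to 105600116, stood at 0.0965 FPKM for group D against 0 for group E, so it has no fold and did not pass the filter. Cd163, the receptor for haptoglobin bound to hemoglobin, lies on chromosome 6 from 124304651 to 124330527 and stood at 2.16 FPKM for group D against 2.48 FPKM for group E, a log2 change of 0.20. All 16 macrophage markers that passed the filter lay within 2-fold, as did 97.1% of all genes that passed. The median log2 change of the 16 markers was -0.04. The complement genes C1qa and C1qb were at 58.9 and 60.5 FPKM and at 36.0 and 60.0 FPKM, Mertk, a receptor for dying cells, was at 40.9 and 25.0 FPKM, and C1qc was at 24.0 and 28.6 FPKM in group D and group E. Marco and Vsig4, markers of resident macrophages of other organs, were listed at 0 in both groups.

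**Figure D3:**
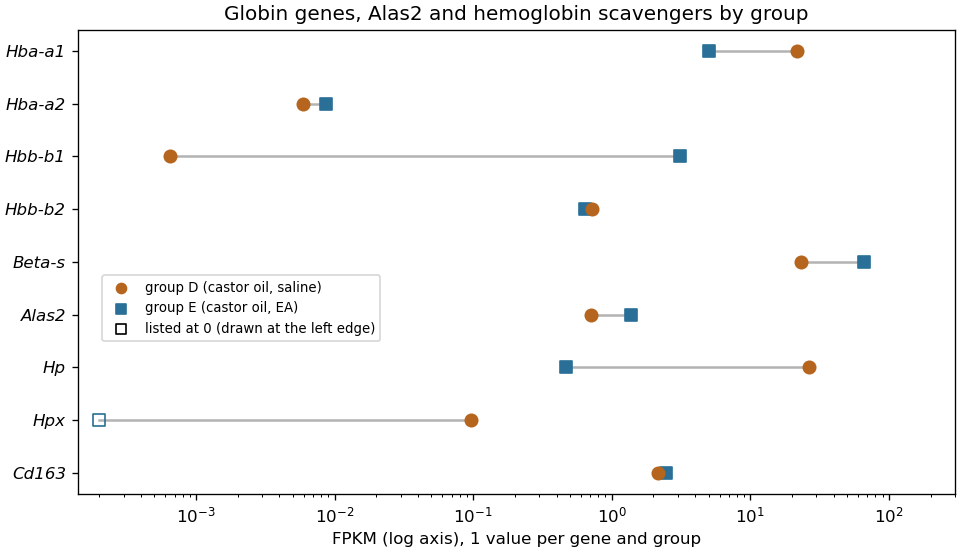
FPKM of the 9 genes in group D (brown circles) and group E (blue squares) on a log axis, with 1 value per gene and group and an open marker at the left edge where a gene was listed at 0. Hp and Hba-a1 are farther left in group E, and Beta-s and Hbb-b1 farther right.

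Of the 9 genes, 6 passed the filter on low values and 3 (Hba-a2, Hbb-b2 and Hpx) did not. Hbb-b1 and Alas2 reached 1 FPKM in group E alone and Hp in group D alone. Of the 6, 4 lay past a 2-fold change, Beta-s and Hbb-b1 higher and Hp and Hba-a1 lower in group E, and Alas2 and Cd163 lay within it. Over all 12694 genes that passed, 2.90% lay past 2-fold, 1.59% higher and 1.31% lower in group E. Since the same values chose the genes, nothing is read from this count.

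**Figure D4:**
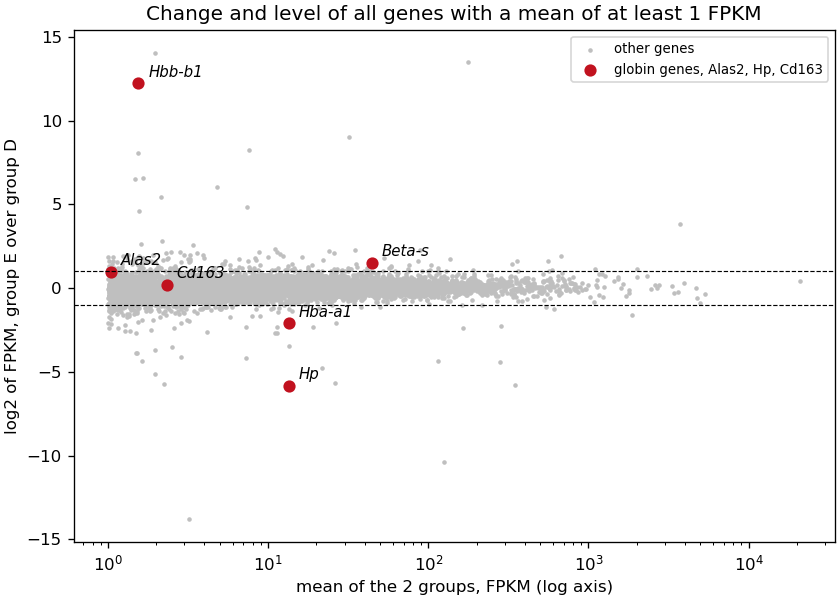
Log2 ratio of FPKM, E over D (y axis) against the mean of both groups in FPKM (x axis, log scale) for the 12694 genes that passed the filter, with the 6 genes described here that passed in red and dashed lines at a 2-fold change. Hp lies at -5.82 and Hba-a1 at -2.10, below the lower line, Beta-s lies at 1.51, above the upper line, and Hbb-b1 lies at 12.23 from a value near 0 in group D.

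Genes that handle heme after its release were also read. All 10 genes of heme breakdown and transport in the table lay within 2-fold, as did 97.1% of all genes that passed the filter. The median log2 change of the 10 was 0.10, with single genes from -0.70 to 0.60. Abcg2, an exporter of heme products and drugs, was at 121 FPKM for group D against 74.3 FPKM for group E, and Lrp1, the receptor for hemopexin bound to heme, at 58.3 FPKM and 58.8 FPKM. Nfe2l2, an activator of antioxidant genes, was at 57.8 FPKM and 87.8 FPKM, and Bach1, a repressor that heme releases from its targets, at 35.5 FPKM and 30.5 FPKM. Hmox1, the heme oxygenase that heme induces, was at 2.99 FPKM for group D against 3.46 FPKM for group E, and is named here after its values were seen.

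Hp is made mainly by liver, and also by fat and other tissues, in answer to inflammation, so lists of those sources were set beside it. Of 17 other acute phase proteins, 6 passed the filter and all 6 lay within 2-fold, as did 97.1% of all genes that passed. The median log2 change of the 6 was -0.01. Saa1, a serum amyloid A, was at 25.9 FPKM for group D against 23.3 FPKM for group E, Cp, the copper carrier ceruloplasmin, at 7.65 FPKM and 6.73 FPKM, and Saa3 at 6.42 FPKM and 5.16 FPKM, while the protease inhibitor Serpina3n was at 5.57 FPKM and 10.4 FPKM. Orm1 was listed at 0 for group D against 3.43 FPKM for group E, and Saa2 and Orm2 were also at 0 in group D, whereas Fga, Crp, Apcs and Ambp were at 0 in group E after at most 0.120 FPKM in group D. Over all genes that passed, 1.31% were past 2-fold and lower in group E and 1.59% past 2-fold and higher. Of 13 hepatocyte markers, 8 passed the filter, with a median log2 change of -0.76 over the 8. Of these 8, 3 were past 2-fold, all lower in group E. The lower ones were Trf (transferrin, which carries iron) at 42.7 FPKM and 10.2 FPKM, Tat, an amino acid enzyme, at 1.54 FPKM and 0.475 FPKM, and the plasma protein Apoh at 1.42 FPKM and 0.669 FPKM. Trf was also among the most abundant of these markers, and the others of highest mean were listed higher and within 2-fold. These others were the transcription factor Hnf4a at 266 FPKM and 303 FPKM and the urea cycle enzyme Cps1 at 239 FPKM and 261 FPKM. The drug-metabolizing enzyme Cyp3a11 was at 17.9 FPKM and 28.3 FPKM. The intestine also expresses Hnf4a, Cps1 and Cyp3a11, and which cells gave the RNA of Trf, Tat and Apoh was not tested. Alb (albumin), the defining product of hepatocytes, was listed at 0.111 FPKM for group D against 0 for group E, and Apoa2 at 0.133 FPKM and at 0. The part of acute phase and hepatocyte genes in the values of Hp was not tested.

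Adipocyte markers differed in both directions. Over all 12694 genes that passed the filter, 1.59% lay past 2-fold and higher and 1.31% past 2-fold and lower in group E. Of 16 adipocyte markers in the table, 12 passed the filter, with a median log2 change of 0.62. Of these 12, 5 were past 2-fold and higher and 3 past 2-fold and lower in group E. The lower ones were Thrsp, a regulator of fat synthesis, at 51.0 FPKM for group D against 0.989 FPKM for group E, Lpl (lipoprotein lipase) at 41.8 FPKM and 1.52 FPKM, and Fabp4, a fatty acid carrier, at 536 FPKM and 25.6 FPKM. The higher ones were Car3, a carbonic anhydrase, at 0.0310 FPKM and 356 FPKM, the hormone Adipoq at 0.120 FPKM and 63.4 FPKM, the lipid droplet coat Plin1 at 0.0495 FPKM and 15.2 FPKM, Cidec, a protein of lipid droplets, at 32.9 FPKM and 83.4 FPKM, and Plin4. Pck1, an enzyme of glucose and glycerol synthesis, lay within 2-fold at 71.4 FPKM and 58.2 FPKM. Cfd, Retn and Lep, secreted by fat cells, were listed at 0 for group D against 274, 53.4 and 1.53 FPKM for group E. Of the 12 that passed, 7 were above 0 on the log2 scale and 5 below, the sign of Hp. The summed level of the 16 markers was 799 FPKM for group D against 1045 FPKM for group E. Their part in the values of Hp was not tested.

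**Figure D5:**
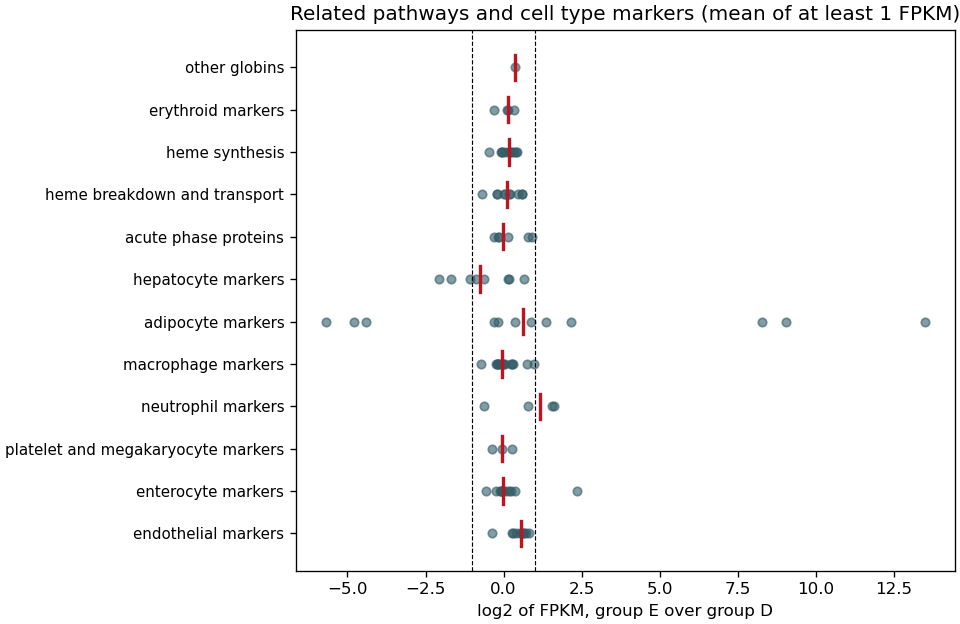
Log2 ratio of FPKM, E over D (x axis) for genes of each list that passed the filter, 1 point per gene. The red bar is the median of these genes, and dashed lines mark a 2-fold change. Cfd, Retn and Orm1 had a mean above 1 FPKM but were at 0 in group D, so they are not drawn. All genes drawn for heme synthesis, heme breakdown and transport, and macrophages lie between the lines, and adipocyte markers reach from -5.69 to 13.49.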

How the data were processed

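The labels give 1 sample per group, group D and group E. According to the submitters' processing notes and the methods of the study, the authors aligned paired-end reads with TopHat2 2.0.12 on a Bowtie2 2.2.3 index and named DESeq 1.18.0 for the comparison. The deposited table holds FPKM computed by the authors, 1 value per gene and group, and the sources used here do not say how libraries (2 in each group) were joined or scaled. Its columns of fold changes, P-values and q-values, its calls, and a table on KEGG pathways hold the authors' own comparison and were not used. The volcano plot of the study is labelled with the ratio of group D to group E, and directions here are those of the group columns of the table. The genome build is not given. After 1 was added to each start, 21270 of 21522 symbols overlapped their RefSeq position on GRCm38.p6.

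The 9 genes and the 12 gene lists were chosen with earlier results of these data known. Of 171 listed genes, 165 were in the table. Named were the 9 genes, other globin rows and, per list, up to 5 genes past 2-fold, up to 4 of the highest mean and genes at 0 in 1 group, with genes of the lists that passed none of these left out or said to be chosen later. With only 2 values per gene, no likeness of pattern was measured. The counting of genes past a fold was tested on simulated data. Alternatives were pseudocounts of 0.1 and 1 FPKM, 4 scalings, folds of 1.5 and 4, no filter and a mean of at least 5 FPKM. The tools were matplotlib 3.10.9, pandas 2.3.3, numpy 2.4.6 and Python 3.11.15.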

Additional observations from a re-analysis of the deposited data

How the results depend on the processing

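No paired analysis was possible because the table holds 1 value per group, and for the same reason no library could be left out. Under both pseudocounts and the 4 scalings, each of the 8 genes with a value above 0 in both groups, and the α-globin, β-globin and adult globin sums, kept their side of 2-fold. Centring on the median gene, the upper quartile and Actb shifted all log2 changes by at most 0.04. Rescaling to the same sum over rows of at least 300 bases shifted them by -0.33, to 1.17 for Beta-s, 0.62 for Alas2 and -2.44 for Hba-a1, and Cd163, within 2-fold throughout, went from 0.20 to -0.13. Of the members, 2 were higher past the threshold, and 1 remained at a 4-fold threshold (Hbb-b1) and 1 at a mean of at least 5 FPKM (Beta-s). Of the 165 list genes in the table, 14 passed the filter and were past 2-fold, 8 higher and 6 lower. Adipocyte markers were 5 of the 8 and 3 of the 6. Over all genes that passed, 2.90% were past 2-fold, 1.59% higher and 1.31% lower. At 1.5-fold there were 30 list genes (19 and 11), at 4-fold 9 (5 higher), and with no filter 23 (13 and 10). The share of all genes was not computed at those settings. As the lists were chosen with earlier results known, nothing is read from these counts. FPKM of a group carry no depth, so values near 0 cannot be given a limit.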

Other observations

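Markers of other cells that travel in or line the blood were also read. Of 12 neutrophil markers in the table, 4 passed the filter, and S100a8 and S100a9, subunits of calprotectin, were past 2-fold and higher in group E, at 1.60 FPKM for group D against 4.94 FPKM for group E and at 0.743 FPKM and 2.19 FPKM. Retnlg was at 10.4 FPKM and 6.77 FPKM and Lcn2 at 1.85 FPKM and 3.14 FPKM, whereas Elane was listed at 0 and 0.231 FPKM and Ngp at 0.0860 FPKM and 0. All 3 platelet markers that passed the filter lay within 2-fold, Gp1bb at 27.0 FPKM and 20.8 FPKM, Pf4 at 2.29 FPKM and 2.19 FPKM and Gp1ba at 0.955 FPKM and 1.16 FPKM, and Gp5 was listed at 0.123 FPKM and 0. All 10 endothelial markers lay within 2-fold, with a median log2 change of 0.54, 9 above 0 and 1 below. Of all genes that passed the filter, 97.1% lay within 2-fold. Pecam1, an adhesion molecule of endothelium, was at 15.0 FPKM and 21.4 FPKM, Kdr, a receptor for VEGF, at 11.5 FPKM and 14.0 FPKM, Cdh5 at 6.48 FPKM and 11.3 FPKM and Emcn at 5.39 FPKM and 8.43 FPKM.

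Enterocyte markers, against which the tissue label was checked, were at high levels in both groups, with Fabp6, the bile acid carrier of the ileum, at 5698 FPKM for group D against 3846 FPKM for group E, Fabp2 at 3910.0 FPKM and 3327 FPKM, Apoa1 at 2693 FPKM and 2667 FPKM and Anpep at 2465 FPKM and 2756 FPKM. Of these 12 markers, Lct (lactase) was past 2-fold, at 3.59 FPKM and 18.4 FPKM, as were 2.90% of all genes that passed the filter. Among globins outside blood, Cygb (cytoglobin) was at 10.1 FPKM and 13.0 FPKM, Ngb (neuroglobin) at 0.232 FPKM and 0.193 FPKM, and Mb (myoglobin) was listed at 0 in both groups.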
